A study of Rattus norvegicus with 22 samples.

Results

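Eotaxin-1 (Ccl11) and 9 genes of its receptor and of mast cells were followed across 11 pairs of rat tongue carcinoma and adjacent tissue. The 10 genes are Ccl11, its receptor Ccr3, the stem cell factor receptor Kit and its ligand Kitlg, the granule proteases Cpa3, Cma1 and Tpsab1, the IgE receptor chains Ms4a2 and Fcer1a, and the histamine-forming enzyme Hdc. They were found by their names in the array annotation, which names 19167 genes, and none of the 10 was absent. Ccl11 was selected on its measured difference between the tissues. It was the 1 gene of 32 chemokine genes on the array that was called lower in the carcinomas, while 14 were called higher, and its own difference is therefore given below as a description with no test. The other 9 genes were chosen by cell type, with earlier results of these data known. The chemokine genes next to Ccl11 in the order of differences were Ccl25, at -0.55 on the log2 scale, and Ccl26, at -0.42, neither of which rose well above background in any of the pieces.

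Each of 11 male F344 rats, of about 33 weeks of age, gave 1 piece of oral squamous cell carcinoma (OSCC) of the tongue and 1 piece of phenotypically normal tongue beside it. The deposited protocol has 4-nitroquinoline-1-oxide (4-NQO), a water-soluble carcinogen, given at 20 ppm in drinking water for 10 weeks, and takes both pieces from the tongues of the treated rats. In the labels the treatment of the normal pieces is none, and every title, carcinomas included, calls the animal untreated. The normal group is thus exposed tongue that looked normal, with no unexposed rat for comparison, and each piece is bulk tissue of mixed cell types. In bulk tissue, fewer cells of a type and less RNA per cell cannot be told apart.

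Mast cells are tissue-resident immune cells that develop under the control of KIT, the receptor of stem cell factor. They store histamine, chymase, tryptase and carboxypeptidase A3 in granules and release them when antigen crosslinks IgE on the high-affinity IgE receptor. Eotaxin-1 is made by fibroblasts, epithelium and other tissue cells, and it draws eosinophils and other cells that carry CCR3. Rats, like mice, hold a cluster of mast cell protease genes of which some mark connective tissue mast cells and some mucosal mast cells, and in mice Mcpt8 marks basophils.

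Sequences are shown where probe position or promoter letters bear on the results below. Kitlg was measured by 3 probes of 60 bases. The array annotation ties 1 of them to transcript variant 1 alone and the other two to both variants. Variant 1 carries an additional exon that encodes the main site at which the membrane protein is cut to release soluble stem cell factor. The probe of variant 1 alone lies at chr7:37776944-37777003 on the plus strand of rn4, and the dimmer probe of both variants lies at chr7:37783214-37783273 on the same strand. Both are in lower case throughout.
Kitlg variant 1 probe: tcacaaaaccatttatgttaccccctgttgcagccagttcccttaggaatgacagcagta
Kitlg dimmer probe of both variants: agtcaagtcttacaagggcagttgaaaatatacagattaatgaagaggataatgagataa

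The 250 bases before the transcription start, from RefSeq on build GRCr8, were searched for 3 motifs on both strands, with no overlap between the matches found. These were the GATA element AGATAA, the TATAAA box, and the STAT6 element, which reads TTC, then 4 free bases, then GAA. RefSeq promoters were matched for 8 of the 10 genes, and Ccl11 and Ms4a2 are named only. AGATAA was found in 4 of the 8, Ccr3, Cpa3, Cma1 and Fcer1a, and in 10.3% of all 33469 promoters. TATAAA was found in Kitlg, Cpa3 and Fcer1a and in 12.9% of all promoters. The STAT6 element was in none of the 8 and in 6.25% of all. The promoters of the 3 mast cell genes that hold AGATAA are printed, with GATA and TATAAA matches in capitals. On the strand of the gene AGATAA begins 55 bases before the start in Cpa3 and 64 bases before it in Cma1, and in Fcer1a the match is on the opposite strand and reads TTATCT. A match is a run of letters and not a measured binding site.
Cpa3, chr2:104673238-104673487, minus strand: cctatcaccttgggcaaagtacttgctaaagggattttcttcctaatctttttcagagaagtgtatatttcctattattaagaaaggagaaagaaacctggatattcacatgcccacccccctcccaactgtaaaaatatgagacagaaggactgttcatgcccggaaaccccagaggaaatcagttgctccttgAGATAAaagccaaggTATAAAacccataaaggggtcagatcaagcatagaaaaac
Cma1, chr15:33390134-33390383, minus strand: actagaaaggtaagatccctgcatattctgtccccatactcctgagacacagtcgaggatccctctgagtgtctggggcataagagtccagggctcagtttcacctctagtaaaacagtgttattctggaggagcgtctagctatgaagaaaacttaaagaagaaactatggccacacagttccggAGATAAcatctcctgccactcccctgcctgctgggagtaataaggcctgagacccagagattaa
Fcer1a, chr13:88224680-88224929, minus strand: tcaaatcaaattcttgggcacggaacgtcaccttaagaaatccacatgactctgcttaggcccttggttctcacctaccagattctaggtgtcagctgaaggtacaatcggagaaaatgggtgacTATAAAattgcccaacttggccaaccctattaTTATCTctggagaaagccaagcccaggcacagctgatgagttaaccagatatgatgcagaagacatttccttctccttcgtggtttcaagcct

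Levels are given as the log2 signal of the brightest probe of a gene minus the 75th percentile of its array, so that 0 is the 75th percentile and each unit is a doubling. Differences are OSCC minus normal within a rat, estimated by limma with the rat as a block, and a gene was called at a Benjamini-Hochberg adjusted p under 0.05 over all 30367 probes and a change of at least 2-fold. By this rule 6.97% of all probes were called lower and 6.86% higher. The median difference of all probes was -0.24 on this scale, and between -0.44 and -0.03 under the other scalings. The 11 normal arrays and the OSCC arrays of animals 4 and 9 shared 1 scan day, and the 9 remaining carcinomas shared a second. With scan day as a term the difference rests on animals 4 and 9, and limma then called 0 of the 9 genes, with 2 of them at an unadjusted p under 0.05 and at least 2-fold. No slide held both tissues, so within a slide slide and tissue cannot be told apart. Of 10 skeletal muscle genes 8 were called lower in OSCC and 0 higher, with a median difference of -1.94. Their mean level ran from 6.56 to 7.59 in normal pieces. In the OSCC pieces of animals 21, 22 and 24 it was 8.35, 7.83 and 8.25, above the highest normal piece. In the other 8 OSCC pieces it lay between 2.63 and 6.57.

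Ccl11 was bright on all 22 arrays and was lower in OSCC than in normal tissue in 10 of 11 rats. In normal tongue its level ran from 1.30 to 2.87 with a median of 2.27. In OSCC it ran from -1.81 to 2.56 with a median of 0.20. The normal pieces lay close together and the carcinomas were spread, with 9 of the 11 carcinomas below every normal piece. The means were 2.21 ± 0.48 for normal and 0.17 ± 1.28 for OSCC pieces (SD, n = 11 each), a difference of -2.04 (SE 0.36) or 4.11-fold. The within-rat differences ran from -3.84 in animal 21 to 0.75 in animal 24, the 1 rat in which the carcinoma held more. The OSCC piece of animal 22 was the other carcinoma within the normal range, at 1.95. Both pieces belong to the 3 with muscle levels above those of normal tissue, but the lowest Ccl11 level of all, -1.81, was in the third, animal 21. Without the 3 animals the difference was -2.35, and in animals 4 and 9, scanned within 1 day, it was -1.62. Of 10 fibroblast genes 5 were called higher in OSCC and 0 lower, among them Col1a1 at 1.60 and Lum at 1.67, and the mean level of the list ran from 1.66 to 2.58 in normal tissue and from 1.66 to 3.62 in OSCC. The part of muscle and fibroblast content in the Ccl11 difference was not tested.

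**Figure D1:**
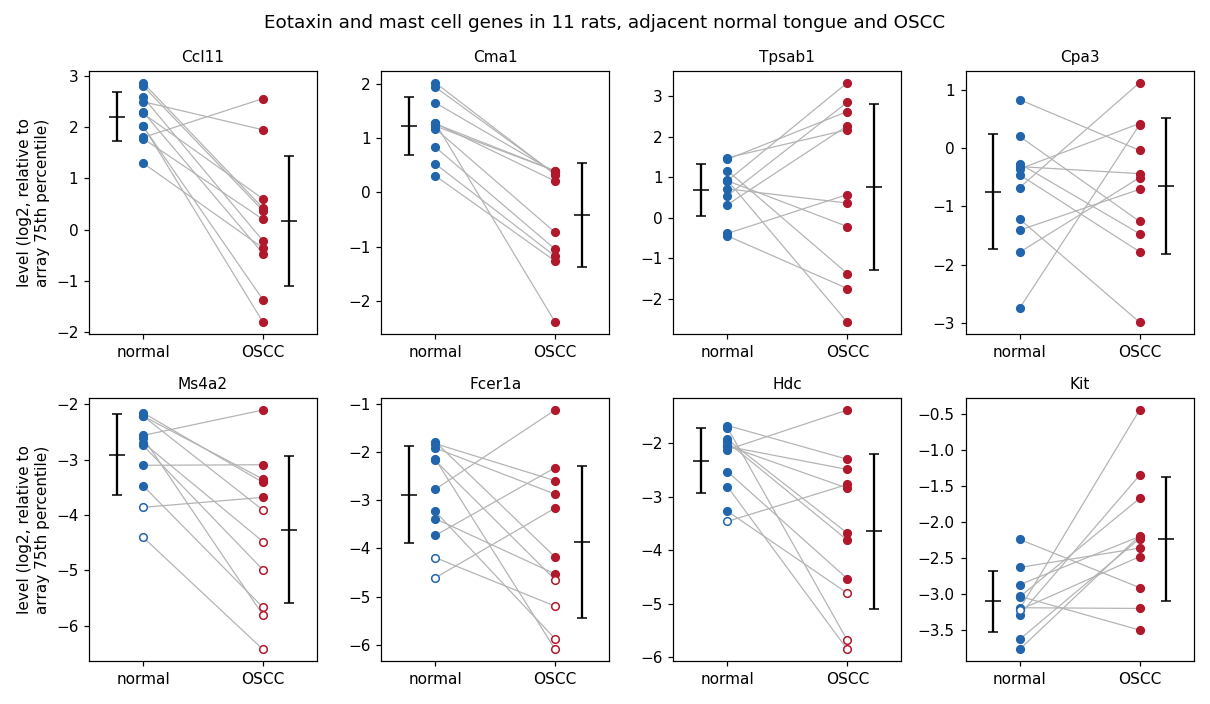
Levels of 8 of the genes in adjacent normal tongue and OSCC, on a log2 scale relative to the 75th percentile of each array. Each point is 1 array, a grey line joins the 2 pieces of a rat, open points were not well above background, and the black marks beside the points give the mean and SD over 11 rats. Ccl11 was lower in OSCC in 10 of 11 rats and Cma1 in 11 of 11, whereas the carcinomas spread to both sides of normal tissue for Tpsab1 and Cpa3.

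Ccr3, the receptor of eotaxins on eosinophils, was not well above background on any of the 22 arrays, so no fold is given. The other ligands and the type 2 cytokine genes were followed as a list of 22 genes, of which 20 were matched on the array. Of these 4 were called higher and 0 lower in OSCC, with 3 at an adjusted p under 0.05 in the lower direction but under 2-fold. The median difference was -0.24, equal to that of all probes. Among CCR3 ligands, Ccl24 (eotaxin-2) was well above background on all arrays, with means of 1.94 ± 0.11 for normal and 1.66 ± 0.25 for OSCC pieces (SD, n = 11 each), a difference of -0.28 (SE 0.11, adjusted p = 0.056 by limma). Ccl5, a ligand of CCR3 and other receptors, differed by -0.39 (SE 0.26, adjusted p = 0.23 by limma). Ccl26 (eotaxin-3) was never well above background. Ccl7, a monocyte attractant that also binds CCR3, rose by 2.16 (SE 0.60, adjusted p = 0.014 by limma) and was higher in 8 of 11 rats. Ccl28, an epithelial chemokine, was well above background in 0 normal and 6 OSCC pieces, and the carcinomas held at least 2.3-fold more (adjusted p = 0.035 by limma). Its call was lost with the slide as a random block (adjusted p = 0.098) and without any 1 of animals 4, 9, 16, 17 and 24 (adjusted p between 0.056 and 0.079). It was also lost after normexp background correction (0.95, adjusted p = 0.31), without animals 21, 22 and 24 (adjusted p = 0.080) and by the methods' t-test after Benjamini-Hochberg adjustment (p = 0.060).

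Signals of the type 2 cytokines themselves were at the floor of the array. Il4, Il9, Il3 and Il25 were never well above background, and Il5 and Il13 on 1 OSCC array each. Il4r, the receptor chain shared by interleukins 4 and 13, rose by 1.46 (SE 0.23, adjusted p = 0.00080 by limma) and was higher in 11 of 11 rats. Chi3l1, a secreted chitinase-like protein of macrophages and neutrophils, rose by 4.19 (SE 0.41, adjusted p = 8.7e-05 by limma), also in 11 of 11 rats. Il33, an alarmin that acts on mast cells, differed by 0.54 (SE 0.17, adjusted p = 0.027 by limma), which is under 2-fold.

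The eosinophil granule genes Epx, Prg2 and Prg3 and the receptor gene Il5ra were at background in almost all pieces. Of 18 eosinophil and basophil genes 16 were matched, 5 of them called higher and 0 lower, with a list median of 0.04. Epx, Prg3, Il5ra and Gata1 were not well above background on any of the 22 arrays, and Prg2 on 1 OSCC array. Epx and Prg2 encode eosinophil peroxidase and major basic protein, the granule proteins of the cell, and Il5ra its interleukin 5 receptor. Of the ribonuclease genes on the list, Ear11 was well above background in 3 normal and 8 OSCC pieces and differed by 0.80 (adjusted p = 0.13 by limma). Rnase2 was well above background in 3 normal and 5 OSCC pieces and differed by -0.09 (adjusted p = 0.83 by limma). The 5 genes called higher were Mcpt8, Siglec5, Csf2rb, Cebpe and Adgre1. Siglec5, a sialic acid receptor of myeloid cells, rose by 2.47 (SE 0.67, adjusted p = 0.015 by limma) with 1 normal array left out as an outlier, and Csf2rb, the shared receptor chain of interleukins 3 and 5 and GM-CSF, was at least 1.06-fold higher (adjusted p = 0.00078 by limma). Adgre1, which macrophages share with rodent eosinophils, rose by 1.58 (SE 0.26, adjusted p = 0.00088 by limma). After normexp background correction the calls of Siglec5 (0.76, adjusted p = 0.066), Csf2rb (0.22, adjusted p = 0.89) and Cebpe (0.43, adjusted p = 0.54) were lost, and with the authors' scaled values that of Siglec5 was too (2.07, adjusted p = 0.054). Of 8 neutrophil and 8 macrophage genes, 5 and 4 were called higher and 0 lower. Among the neutrophil genes 1 was lower at an adjusted p under 0.05 by limma but under 2-fold, and 2 were never well above background. The mean level of the neutrophil list ran from -4.21 to -2.82 in normal tissue and from -3.98 to -0.20 in OSCC. That of the macrophage list ran from -2.03 to -0.84 and from -1.34 to 0.31. Their part in the rise of the shared myeloid genes was not tested.

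The mast cell proteases did not move as a block. Cma1, the chymase of connective tissue mast cells, fell in 11 of 11 rats, a pattern that 5.25% of all probes shared. Its level ran from 0.31 to 2.03 in normal tissue, with a median of 1.27, and from -2.40 to 0.40 in OSCC, with a median of 0.21. Of the 11 normal pieces 10 lay above every carcinoma, and the ranges overlapped only through the normal piece of animal 16. The mean fell from 1.23 ± 0.53 to -0.42 ± 0.96 (SD, n = 11 each), a difference of -1.65 (SE 0.22, adjusted p = 0.00037 by limma) or 3.14-fold. The within-rat differences ran from -3.69 to -0.83. The call held under each alternative except scan day as a term, with which the difference was -1.38 (adjusted p = 0.097).

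Tpsab1, a mast cell tryptase, was well above background on all 22 arrays and did not pass the test. Its level ran from -0.45 to 1.48 in normal tissue, with a median of 0.91, and from -2.58 to 3.33 in OSCC, with a median of 0.57. The carcinomas lay on both sides, 5 above the highest normal piece and 3 below the lowest. The mean was 0.69 ± 0.65 in normal tissue and 0.75 ± 2.05 in OSCC, a difference of 0.06 (SE 0.54, adjusted p = 0.93 by limma). For comparison, the median SD of the 13632 probes well above background on all arrays was 0.23 in normal tissue and 0.39 in OSCC. Tpsab1 was higher in OSCC in animals 4, 11, 13, 16, 25 and 26 and lower in animals 9, 17, 21, 22 and 24. Without animals 21, 22 and 24, whose OSCC pieces had the high muscle levels, the difference was 0.98 (adjusted p = 0.054 by limma).

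Cpa3, the mast cell carboxypeptidase, did not pass the test either. Its level ran from -2.75 to 0.83 in normal tissue, with a median of -0.46, and from -2.99 to 1.12 in OSCC, with a median of -0.51. The groups overlapped almost fully. The difference was 0.09 (SE 0.43, adjusted p = 0.88 by limma), with single rats between -1.77 in animal 21 and 3.15 in animal 11. Under the array median it was -0.11, so that its sign depends on the scaling, as does that of Tpsab1, at -0.14. In animals 4 and 9, scanned within 1 day, Cpa3 differed by -1.16.

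Other proteases of the family went further apart. Among 20 further mast cell genes, all matched, 5 were called higher and 1 lower, with a list median of -0.44. At an adjusted p under 0.05 by limma, with no fold threshold, 6 were higher and 5 lower. Of the 20 genes 5 were never well above background. Mcpt9 and Mcpt10, proteases of the Mcpt8 group in the mast cell protease cluster, were well above background in 0 of 11 normal pieces and in 8 and 7 of 11 carcinomas. Mcpt9 went from a measured mean of -5.28 to -1.97 and was at least 3.79-fold higher (adjusted p = 0.0015 by limma, higher in 10 of 11 rats). Mcpt10 went from -6.11 to -2.87 and was at least 2.04-fold higher (adjusted p = 0.0016 by limma, higher in 11 of 11). Mcpt8, which in mice marks basophils, rose by 3.91 (SE 0.70, adjusted p = 0.0015 by limma), from 1 normal piece well above background to 9 carcinomas. The 3 rises held under each alternative that kept these dim probes, except scan day as a term. In OSCC the Mcpt8 level ran from -4.56 in animal 22 to 1.95 in animal 11, whose muscle levels were 7.83 and 3.22, and the part of muscle content in the spread was not tested. Mcpt2, a chymase of mucosal mast cells, differed by -0.76 (SE 0.32, adjusted p = 0.072 by limma) and Tpsb2, the second tryptase, by -0.61 (SE 0.40, adjusted p = 0.22 by limma). The probes of Mcpt8, Mcpt9 and Mcpt10 shared at most 40.4% of bases at their best ungapped overlap, but full transcripts were not compared, so that cross-hybridization within the family remains uncertain.

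**Figure D2:**
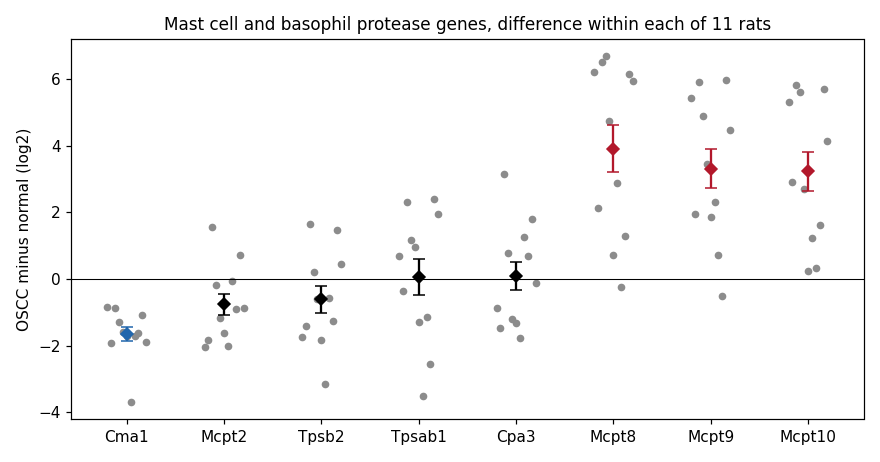
Difference between OSCC and normal tissue for 8 mast cell and basophil protease genes, on the log2 scale. Grey points are the 11 rats and diamonds the limma estimate with its SE, in blue for genes called lower, red for genes called higher and black for genes not called. Cma1 lies below 0 in 11 of 11 rats, Cpa3 and Tpsab1 scatter around 0, and Mcpt8, Mcpt9 and Mcpt10 lie above 0 in at least 10 of 11 rats.

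The remaining called genes of that list were Il1rl1, Cd200r1, Rab27b and, in the lower direction, Gata2. Il1rl1, the receptor of interleukin 33, was well above background in 0 normal and 7 OSCC pieces and at least 1.66-fold higher (adjusted p = 0.015 by limma), while its second probe differed by 0.67 (adjusted p = 0.074 by limma). Cd200r1, an inhibitory receptor of myeloid cells, was at least 1.56-fold higher (adjusted p = 0.0065 by limma). After normexp background correction Il1rl1 differed by 0.89 (adjusted p = 0.032), under 2-fold, and Cd200r1 by 0.43 (adjusted p = 0.48), so that both calls were lost. Gata2, the transcription factor that mast cells and basophils need, fell by 1.23 (SE 0.22, adjusted p = 0.0013 by limma) in 10 of 11 rats.

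The IgE receptor chains of mast cells were lower or not called, whereas the chain they share with other cells was higher. Ms4a2, the beta chain, fell. Its level ran from -4.40 to -2.15 in normal tissue, with a median of -2.69, and from -6.43 to -2.10 in OSCC, with a median of -3.91. It was well above background in 9 normal and 5 OSCC pieces, and the highest value of all was the carcinoma of animal 25. The difference was -1.36 (SE 0.32, adjusted p = 0.0062 by limma), lower in 8 of 11 rats. It was -0.32 (adjusted p = 0.71) after normexp background correction and -1.70 (adjusted p = 0.14) with scan day as a term.

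Fcer1a, the alpha chain that binds IgE, did not pass the test with either of its probes. By the brighter probe its level ran from -4.61 to -1.78 in normal tissue and from -6.10 to -1.12 in OSCC, with medians of -2.77 and -4.18. The groups overlapped, with 4 carcinomas below every normal piece and 1 above. The difference was -0.99 (SE 0.50, adjusted p = 0.12 by limma), and by the second probe, printed in 10 spots, -0.62 (SE 0.43, adjusted p = 0.23 by limma). Both probes put animals 11, 25 and 26 higher in OSCC and the other 8 lower. Without animals 21, 22 and 24 the difference was -0.26 (adjusted p = 0.66 by limma).

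Fcer1g, the gamma chain, which macrophages and neutrophils also use with other Fc receptors, rose by 1.75 (SE 0.36, adjusted p = 0.0029 by limma) in 10 of 11 rats, and by 2.03 (SE 0.38) on its second probe. The signalling genes behind the receptor were on a list of 24 with the histamine genes, all matched, of which 6 were called higher and 1 lower, with a median of 0.46. Btk, a kinase of mast cells, B cells and myeloid cells, rose by 1.19 (SE 0.27, adjusted p = 0.0048 by limma), but differed by 0.51 (adjusted p = 0.20) after normexp background correction and by 0.98, under 2-fold, under the array median. Pik3cd rose by 1.13 (adjusted p = 0.013 by limma). Its difference was 0.18 (adjusted p = 0.97) after normexp background correction. It was under 2-fold under the array median (0.93) and without animal 11 (0.98). Syk, the first kinase to bind the gamma chain, differed by 0.17 (SE 0.20, adjusted p = 0.50 by limma), and Lyn was never well above background.

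Hdc, the enzyme that makes histamine, fell. Its level ran from -3.46 to -1.67 in normal tissue, with a median of -2.06, and from -5.85 to -1.38 in OSCC, with a median of -3.68. In 6 carcinomas it was below every normal piece and in 1, that of animal 25, above. The difference was -1.32 (SE 0.39, adjusted p = 0.021 by limma), lower in 9 of 11 rats. The call was lost after normexp background correction (-0.39, adjusted p = 0.48), with the slide as a random block (-1.26, adjusted p = 0.065), without animals 21, 22 and 24 (-0.87, adjusted p = 0.079) and with scan day as a term (-1.39, adjusted p = 0.31). Of the enzymes that break histamine down, Hnmt was never well above background, and Aoc1, called higher, was well above background in 0 normal and 4 OSCC pieces with no fold that could be set against its floor. Of the receptors, Hrh1 and Hrh2 were never well above background. Hrh3 fell by 1.16 (SE 0.29, adjusted p = 0.0095 by limma) on its brighter probe and differed by 0.21 (adjusted p = 0.57 by limma) on the other, which was not well above background in any normal piece. Hrh4 differed by 0.55 (SE 0.15, adjusted p = 0.016 by limma), which is under 2-fold.

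Kit and Kitlg were not called by their brightest probes. Kit level ran from -3.77 to -2.24 in normal tissue, with a median of -3.19, and from -3.50 to -0.44 in OSCC, with a median of -2.23. In 6 carcinomas it was above every normal piece, and the highest was that of animal 17. The difference was 0.87 (SE 0.29, adjusted p = 0.033 by limma), higher in 8 of 11 rats and under 2-fold, so Kit was not called. Without animal 4 it was 1.02 (adjusted p = 0.019 by limma) and without animal 21 it was 1.00 (adjusted p = 0.017 by limma), both past the threshold. Over the 11 fits that each left out 1 animal the adjusted p ran from 0.017 to 0.074, and it was above 0.05 without animal 9, 11, 16, 25 or 26 and at 0.050 without animal 17. It was also above 0.05 under the array median (0.67, adjusted p = 0.064), quantile normalization (0.71, adjusted p = 0.093) and normexp (0.38, adjusted p = 0.56). The same held with the slide as a random block (0.86, adjusted p = 0.091) and with scan day as a term (0.63, adjusted p = 0.53). By the methods' t-test after Benjamini-Hochberg adjustment p was 0.052. Melanocytes also carry KIT. Of 7 matched melanocyte genes 4 were never well above background, and Dct, which acts in pigment synthesis, fell by 2.85 (SE 0.36, adjusted p = 0.00027 by limma) in 11 of 11 rats. Under the alternatives other than leaving out 1 animal the Dct difference ran from -3.05 to -1.01. The part of melanocytes or other cells in the Kit difference was not tested.

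Of the Kitlg probes, the brightest probe, of both variants, ran from 0.69 to 1.50 in normal tissue and from 0.58 to 2.14 in OSCC, and differed by 0.40 (SE 0.17, adjusted p = 0.075 by limma), higher in 9 of 11 rats. The probe of variant 1 alone was well above background in 0 normal and 9 OSCC pieces. Its level ran from -5.82 to -3.80 in normal tissue and from -4.40 to -2.67 in OSCC, and 7 carcinomas lay above every normal piece. It was higher in 11 of 11 rats and at least 1.31-fold higher, with measured means of -4.81 and -3.50 (adjusted p = 0.0023 by limma). The dimmer probe of both variants was never well above background. The variant 1 difference was 0.25 (adjusted p = 0.87) after normexp background correction and 0.67 (adjusted p = 0.42) with scan day as a term. On the variant 1 probe the normal piece of animal 16, at -3.80, was not well above background, while the OSCC piece of animal 24, at -4.01, was.

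**Figure D3:**
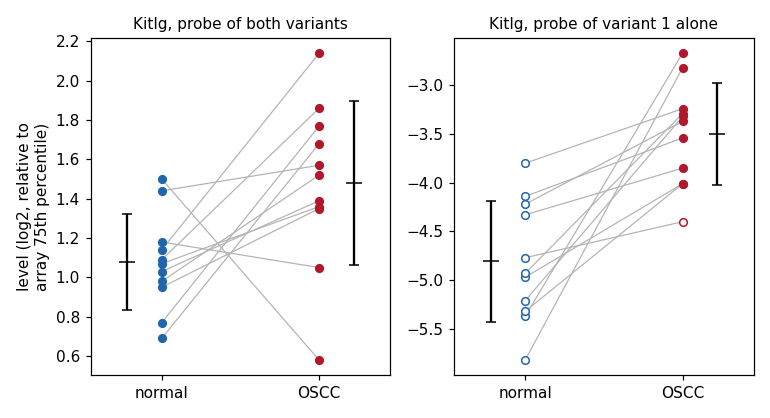
Kitlg levels by the brightest probe, which both transcript variants share, and by the probe of variant 1 alone, on a log2 scale relative to the 75th percentile of each array. Points, lines and marks are as in the plot of levels by pair. The variant 1 probe rose in 11 of 11 rats, from 0 normal pieces well above background to 9 carcinomas.

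Of the 9 genes other than Ccl11, 3 were called lower, Cma1, Ms4a2 and Hdc, against 6.97% of all probes, and 0 were called higher by the brightest probe, against 6.86%. Kit and Kitlg were higher at an unadjusted p under 0.05 with limma, both under 2-fold, and the methods' t-test also called 3 lower and 0 higher. These differences come from the same contrast as the choice of Ccl11 and support nothing about it.

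Whether the genes moved together from rat to rat within 1 tissue does not depend on that contrast. It was asked within normal tissue and within OSCC, and also for the within-rat differences, which are the values of the contrast itself. In all, 66 relations were computed among genes well above background on at least 9 of 11 arrays, and 64 could be tested. After adjustment over the 64, 7 passed by Pearson correlation, 6 of 36 in normal tissue, 1 of 13 in OSCC and 0 of 15 for the differences. Of these 15, 0 had an unadjusted permutation p under 0.05 by Pearson correlation. By Spearman correlation the differences of Cpa3 and Tpsab1 had rho = 0.64 (permutation p = 0.04, adjusted p = 0.29). Only 3 of the 7 passed by Spearman correlation as well.

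In normal tissue 5 of the 6 relations among Ms4a2, Fcer1a, Hdc and Cma1 passed by Pearson correlation. The sixth, of Cma1 and Fcer1a, had r = 0.74 (permutation p = 0.0096, adjusted p = 0.077) and rho = 0.74 (permutation p = 0.012, adjusted p = 0.099). Ms4a2 and Fcer1a had r = 0.89 (permutation p = 0.00024, adjusted p = 0.0099) and rho = 0.91 (permutation p = 0.00021, adjusted p = 0.013), and r = 0.82 without animals 16 and 26, the 2 farthest from the median. Ms4a2 and Hdc had r = 0.89 (permutation p = 0.00085, adjusted p = 0.014) and rho = 0.81 (permutation p = 0.0037, adjusted p = 0.056), and r = 0.70 without the same 2 animals. For Cma1 and Hdc r was 0.79 (permutation p = 0.0044, adjusted p = 0.040) and rho 0.85 (permutation p = 0.0013, adjusted p = 0.029), and r = 0.73 without animals 16 and 22. Centred within slides, the 3 values of r were 0.94, 0.88 and 0.83. The brightness of the arrays went the same way for some of these genes, with r between the 75th percentile and the level of 0.74 for Fcer1a (permutation p = 0.0081, adjusted p = 0.12 over 15 such relations) and 0.63 for Hdc (permutation p = 0.037, adjusted p = 0.18). Its part in the relations was not tested. Under quantile normalization the relation of Ms4a2 and Hdc was computed in a cluster of 7 arrays, with r = 0.15 (adjusted p = 0.89, exact permutation test), and that of Ms4a2 and Fcer1a could not be tested. For Cma1 and Hdc a cluster of 8 arrays gave r = 0.46 (adjusted p = 0.65, exact permutation test) under quantile normalization and r = 0.43 (adjusted p = 0.66, exact permutation test) under the array median. Under the array median Ms4a2 and Hdc had r = 0.19 in a cluster of 8 (adjusted p = 0.81, exact permutation test). After normexp background correction 0 relations passed, with 9 at an unadjusted p under 0.05.

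Cpa3 stood outside this set in normal tissue. Its r was -0.05 with Ms4a2, -0.01 with Fcer1a, -0.33 with Hdc and -0.40 with Cma1, and adjusted permutation p-values were between 0.43 and 0.97. For Tpsab1 in normal tissue r over all 11 pieces was 0.88 with Ms4a2, 0.81 with Cma1, 0.79 with Hdc and 0.75 with Fcer1a. In the larger clusters that the gap rule left, r was 0.78, 0.50, 0.48 and 0.80 in the same order. The adjusted p-values there were between 0.10 and 0.44 by exact permutation test. In OSCC, Cpa3 and Tpsab1 went together, with r = 0.88 (permutation p = 0.00031, adjusted p = 0.0099) and rho = 0.90 (permutation p = 0.00043, adjusted p = 0.014), and r = 0.78 without animals 21 and 25. Within the 9 OSCC arrays of the second scan day r was 0.88, and centred within slides it was 0.93. Both levels also went with the 75th percentile of the OSCC arrays. That r was 0.60 for Cpa3 (permutation p = 0.05, adjusted p = 0.19) and 0.67 for Tpsab1 (permutation p = 0.025, adjusted p = 0.18). The part of array brightness in the relation of Cpa3 and Tpsab1 was not tested. In normal tissue the same genes had r = 0.03 over 11 rats and 0.37 in the cluster of 9 that the gaps in the data leave (adjusted p = 0.53, exact permutation test). The difference between the tissues in this relation was not tested. Under the array median, the 75th percentile of detected probes and normexp the gap rule left clusters of 5 arrays, in which it could not be tested. Cma1 and Cpa3 in OSCC had r = 0.74 in a cluster of 10 (permutation p = 0.019, adjusted p = 0.10). Over all 11, with no restriction to the larger cluster, it was 0.86 (adjusted p = 0.010), so this call turns on the gap rule.

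Of the relations of Ccl11, that with Kitlg in a cluster of 8 normal pieces passed after adjustment. It had r = 0.84 (exact permutation p = 0.0041, adjusted p = 0.040) and rho = 0.86 (exact permutation p = 0.011, adjusted p = 0.098), but r was 0.25 over all 11 pieces, 0.16 centred within slides and -0.42 with the authors' scaled values. With Hdc in normal tissue Ccl11 had r = -0.72 in a cluster of 10 (permutation p = 0.019, adjusted p = 0.10) and r = -0.28 without animals 16 and 26. Over all 11 pieces, with no restriction to the larger cluster, it had r = -0.75 (adjusted p = 0.037), so this call turns on the gap rule too. For the within-rat differences Ccl11 and Cpa3 had r = 0.11 (permutation p = 0.75, adjusted p = 0.87), and Ccl11 and Cma1 r = -0.31 in a cluster of 10 (permutation p = 0.40, adjusted p = 0.58) but 0.26 over all 11. With 11 rats a weak relation would not be detectable.

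**Figure D4:**
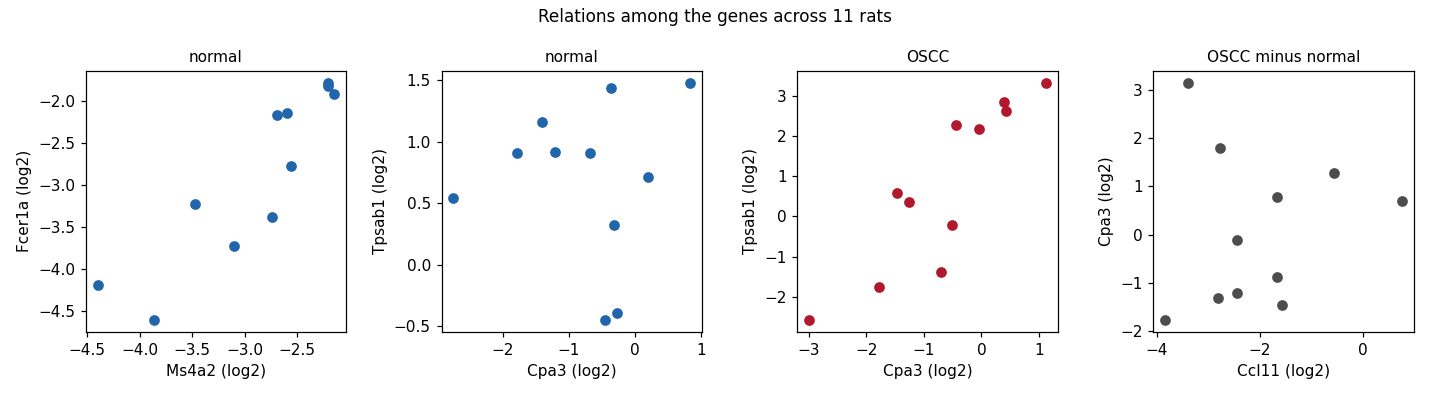
Levels of gene pairs across rats, 1 point per rat, on log2 scales, in normal tissue for Ms4a2 with Fcer1a and for Cpa3 with Tpsab1, in OSCC for Cpa3 with Tpsab1, and the OSCC minus normal differences of Ccl11 with Cpa3. Over 11 rats r is 0.89, 0.03, 0.88 and 0.11 in that order.

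The genes whose 11 within-rat differences were most like those of Cpa3, among 10709 named genes well above background on at least 18 of 22 arrays, included further mast cell proteases. Mcpt2 came first with r = 0.96, followed by RGD1562035, annotated as similar to a mast cell protease 1-like precursor, with r = 0.92. Mcpt1l4, another mast cell protease 1-like gene, Gal3st4, a sulfotransferase, and Alox5, the lipoxygenase of leukotriene synthesis, each had r = 0.88. The 3 protease genes lie on chromosome 15 of rn4, as does Cma1. RGD1562035 and Mcpt1l4 fell by 1.49 (adjusted p = 0.0021 by limma) and 1.55 (adjusted p = 0.0016 by limma), and Mcpt2 and Cpa3 were not called. The genes most like Ccl11 were Ndn (necdin, a growth suppressor) with r = 0.93, Col4a5 (a basement membrane collagen chain) with r = 0.92, Fxyd6 (a regulator of the sodium pump) with r = 0.91, LOC689826 with r = 0.89 and Plscr4 (a phospholipid scramblase) with r = 0.88. Their differences lay between -2.72 and -0.63. These are the highest values of many and are given without a test.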

How the data were processed

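RNA of 22 tongue pieces was hybridized to one-color Agilent rat arrays. The authors' Agilent Feature Extraction software, version 9.5.3.1, gave each spot an intensity, background-subtracted and detrended, which was deposited unscaled, and it replaced 26.7% of values by surrogates where the spot was dim. The authors also deposited a ratio of this signal to the 75th percentile of its array (99.9% of values at or above 0.5 matched within 2%), used as an alternative. Here control spots and 9196 outlier spots (0.975%) were left out, log2 spot values were averaged per probe, and the array's 75th percentile was subtracted. Of the probes, 48.42% to 56.13% were well above background on normal arrays and 52.31% to 65.5% on OSCC arrays. The 75th percentile of the signal ran from 236.8 to 654.9 on normal arrays and from 338.7 to 1414 on OSCC arrays. The part of this brightness in the counts of pieces well above background was not tested. The number of arrays limits the precision.

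The tissues were compared in limma 3.58.1 (R 4.3.3) with rat as a block, as 1 animal gave both pieces. Deviations of paired pieces correlated between -0.21 and 0.24. The fit was also run on simulated data that held no scan day or slide effect, so that run cannot speak to either. A probe not well above background in any piece of 1 tissue has its fold given against the floor, the higher of its own signal and the dimmest detected probe on each array. Relations used 100000 permutations, or all permutations for fewer than 10 values, and where the widest gap exceeded 30% of the range only the larger cluster was used. Of 128 list genes 5 were not matched (Clc, Cd200r3, Ccl8, Tslp and Oca2), and 6 were matched through RefSeq names. The members and lists were chosen with earlier results of these data known. The text names all members and the 5 genes most like Ccl11 and Cpa3. Of the mast cell, eosinophil, ligand and histamine lists it names the called genes with the largest differences (at most 4 each). Of the lists of other cell types only some such genes are named, and other names were chosen after their values were seen. Alternatives were other scalings, background correction, filters, blocks, the methods' t-test and left-out animals.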

Additional observations from a re-analysis of the deposited data

How the results depend on the processing

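With no replicate block, that is without pairing the pieces of a rat, the counts were 3 of the 9 genes and 22 of the 80 listed mast cell, eosinophil, ligand and histamine genes called, as in the paired fit, and Ccl11 differed by -2.04 in both. Ccl11 stayed lower under every alternative run, between -2.35 and -1.62, and between -2.32 and -1.86 without any 1 animal. Leaving out 1 animal left 3 to 4 of the 9 genes and 19 to 24 of the 80 called. After normexp background correction 1 of the 9 (Cma1) and 9 of the 80 were called, and among probes well above background on at least 11 arrays 11 of the list genes. With scan day as a term limma called 0 of the 9 and 0 of the 80, with 2 and 35 at an unadjusted p under 0.05 and at least 2-fold, and the cause was not tested. Of the called values that were followed singly through the alternatives, none changed its sign. Gata2, Adgre1, Rab27b, Aoc1 and the genes most like Ccl11 or Cpa3 were not followed in this way. The 7 relations became 2 under the array median, 4 under the 75th percentile of detected probes, 1 under quantile normalization, 0 after normexp (9 at an unadjusted p under 0.05), 3 without animals 21, 22 and 24, 1 for genes detected on all 11 arrays and 14 with no restriction to the larger cluster. The authors' scaled values gave 6. Calls of dim genes are limited by their signal over background, and tests within 1 scan day by its 2 pairs.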
